A study of Mus musculus with 32 samples.

Results

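The genes described here are 10 chromatin regulators that act upstream of the Hox genes, namely Kmt2a, Men1, Psip1, Dot1l, Mllt1, Mllt3, Aff1, Aff4, Bmi1 and Ezh2. They were chosen by name, with earlier results of these data known, and are 10 of the 27179 genes in the count table. All 10 passed the filter on low counts in both cell populations. RNA was sequenced from 32 libraries of sorted cells of adult C57BL/6 mice, in 8 groups of 4. The knockout groups were Hbo1fl/fl;CreER and Hbo1fl/fl;Mx1Cre, with both alleles of Hbo1 deleted. Their controls were Hbo1fl/+;CreER and Hbo1fl/+;Mx1Cre, which expressed the same Cre and, per the titles, had lost 1 allele, although the treatment protocol calls them wild type. Hbo1, also called Kat7, codes for the enzyme of a complex that acetylates histone H3. CreER mice carried RosaCreERT2 and received tamoxifen, and Mx1Cre mice received polyIC, which induces interferon and through it the Mx1 promoter. Neither promoter is limited to blood cells, and the Cre line, its inducer and its mice cannot be told apart. From each of the 16 mice came an LSK library, made from bone marrow cells without lineage markers but with Sca-1 and Kit, among which the stem cells are found, and a progenitor library. The progenitor gate, the ages and the time since deletion were not given in the sources used here.

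Kmt2a encodes MLL1, which places the H3K4 methyl mark at Hox and Meis1 promoters and keeps these genes active in blood stem cells. It is held at chromatin by menin, the product of Men1, and by LEDGF, the product of Psip1. DOT1L places the H3K79 methyl mark in transcribed genes, and the YEATS-domain proteins ENL (Mllt1) and AF9 (Mllt3) bind acetylated histones and bring in DOT1L or the super elongation complex, whose scaffolds are AFF1 and AFF4. Polycomb complexes oppose this activity: EZH2 is the methyltransferase of Polycomb repressive complex 2 (PRC2), and BMI1 is a subunit of Polycomb repressive complex 1 (PRC1) needed for stem cell self-renewal. In MLL-rearranged leukaemia, KMT2A is fused to AFF1, MLLT1 or MLLT3, among others.

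Across the whole series, total counts ran between 7275277 and 18409271 per library. Kat7 lay between 0 and 1.65 CPM (read counts relative to the library's TMM-scaled total) in the 16 knockout libraries, against 39.7 to 78.0 CPM in the 16 controls, so the targeted gene followed the labels. Ly6a, which encodes Sca-1, lay between 12.6 and 117 CPM in LSK libraries, against 1.83 to 6.31 CPM in progenitor libraries. All 9 LSK and stem cell markers were detected, and their summed level was 929.3 to 1845 CPM in LSK libraries and 444.3 to 690.6 CPM in progenitor libraries. Cd34 and Kit made up most of this sum. Slamf1 averaged 9.37 CPM in LSK and 11.1 CPM in progenitor CreER controls, but 4.39 and 0.28 CPM in Mx1Cre controls. Sex-linked genes of 2 libraries, LSK CreER knockouts 2 and 3, went against their labels. In several Mx1Cre libraries long genes had lower values as a class, and this is given beside the results it touches. In bulk RNA, fewer cells of a type and less RNA per cell cannot be told apart.

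The promoters of 9 of the 10 genes were found in the RefSeq promoter table (GRCm38.p6), which gives 250 bases before and 50 after each annotated start. Psip1 had no entry there. The windows below are shown for the gene with the widest range of group means (Kmt2a), for a gene that differed between the Cre lines in control LSK cells (Mllt1), and for a Polycomb gene with one of the narrowest ranges (Ezh2). All 3 lie on the minus strand, at chr9:44881240-44881539, chr17:56935339-56935638 and chr6:47594981-47595280, and are written 5′ to 3′ with each CpG in capitals.
Kmt2a: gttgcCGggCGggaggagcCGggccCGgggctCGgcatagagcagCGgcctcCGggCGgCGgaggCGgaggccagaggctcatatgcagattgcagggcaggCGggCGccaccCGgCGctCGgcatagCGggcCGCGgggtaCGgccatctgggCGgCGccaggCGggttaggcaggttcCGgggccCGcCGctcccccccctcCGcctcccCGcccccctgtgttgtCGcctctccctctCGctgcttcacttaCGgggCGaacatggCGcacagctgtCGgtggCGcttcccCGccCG
Mllt1: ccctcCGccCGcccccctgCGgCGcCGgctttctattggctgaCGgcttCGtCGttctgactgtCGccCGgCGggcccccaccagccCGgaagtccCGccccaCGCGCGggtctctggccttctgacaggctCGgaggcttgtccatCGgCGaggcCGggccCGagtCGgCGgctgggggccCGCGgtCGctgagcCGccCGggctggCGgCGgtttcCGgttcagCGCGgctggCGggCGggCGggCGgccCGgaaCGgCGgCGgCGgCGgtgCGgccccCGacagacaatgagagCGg
Ezh2: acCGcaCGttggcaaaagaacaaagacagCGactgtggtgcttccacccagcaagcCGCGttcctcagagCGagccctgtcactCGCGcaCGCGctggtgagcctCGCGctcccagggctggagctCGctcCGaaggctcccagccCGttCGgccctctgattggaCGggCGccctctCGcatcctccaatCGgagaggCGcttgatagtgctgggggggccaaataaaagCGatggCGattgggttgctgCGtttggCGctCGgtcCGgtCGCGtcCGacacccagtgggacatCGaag
These windows held 36 CpGs in Kmt2a, 46 in Mllt1 and 31 in Ezh2. The 13 promoter windows of the 9 genes held 4 to 49 CpGs with a median of 29, against a median of 7 over all 32851 windows, and 12 of the 13 were above that median. The exception was a second, internal start of Mllt3 with 4. The GC box GGGCGG, searched on both strands, was in 10 of the 13 windows and in 35.7% of all windows. The CCAAT box was in 7 of 13 (37.4% of all), the ETS motif CCGGAAG in 2 of 13 (8.9%) and TATAAA in 0 of 13 (13.6%). The Men1 windows start at 6334729, 6334763 and 6334789 and overlap over most of their length. Each holds both the CCAAT box and the GC box, so the counts over 13 windows hold the same bases more than once. By gene, the CCAAT box was in Men1, Mllt1, Mllt3 and Ezh2 of the 9 genes. CpG counts above the median of all promoters were thus found both in the gene with the widest range of group means and in the genes with the narrowest.

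Compared per length of exon, as RPKM, Ezh2 and Psip1 had the highest mean levels and Mllt3 the lowest in every group. In LSK CreER knockouts Psip1 averaged 70.7 ± 12.7 RPKM (SD, n = 4) and Ezh2 69.4 ± 3.45 RPKM, against 70.0 ± 4.64 and 73.6 ± 2.76 RPKM in LSK CreER controls. These 2 genes overlapped in all 4 LSK groups. Below them in LSK CreER controls came Mllt1 at 40.3 ± 2.70 RPKM and Men1 at 35.3 ± 2.46 RPKM, whose libraries did not overlap each other. Dot1l at 23.8 ± 5.15 and Bmi1 at 21.9 ± 2.70 RPKM overlapped, as did Aff1 at 11.9 ± 1.06, Kmt2a at 10.1 ± 2.29 and Aff4 at 9.08 ± 1.52 RPKM as neighbours in the order. Mllt3 stood below all of them at 4.20 ± 0.309 RPKM. Between groups the genes varied to different extents. The range of the 8 group means on the log2 CPM scale was 1.25 for Kmt2a, 0.93 for Mllt3, 0.83 for Dot1l, 0.70 for both Aff genes, 0.61 for Mllt1, 0.54 for Psip1, 0.45 for Bmi1, 0.30 for Ezh2 and 0.28 for Men1. Of the 14459 genes tested over all libraries, 6.18% had a smaller range than Ezh2 and 4.86% a smaller one than Men1, while 68.3% had a smaller range than Kmt2a.

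**Figure D1:**
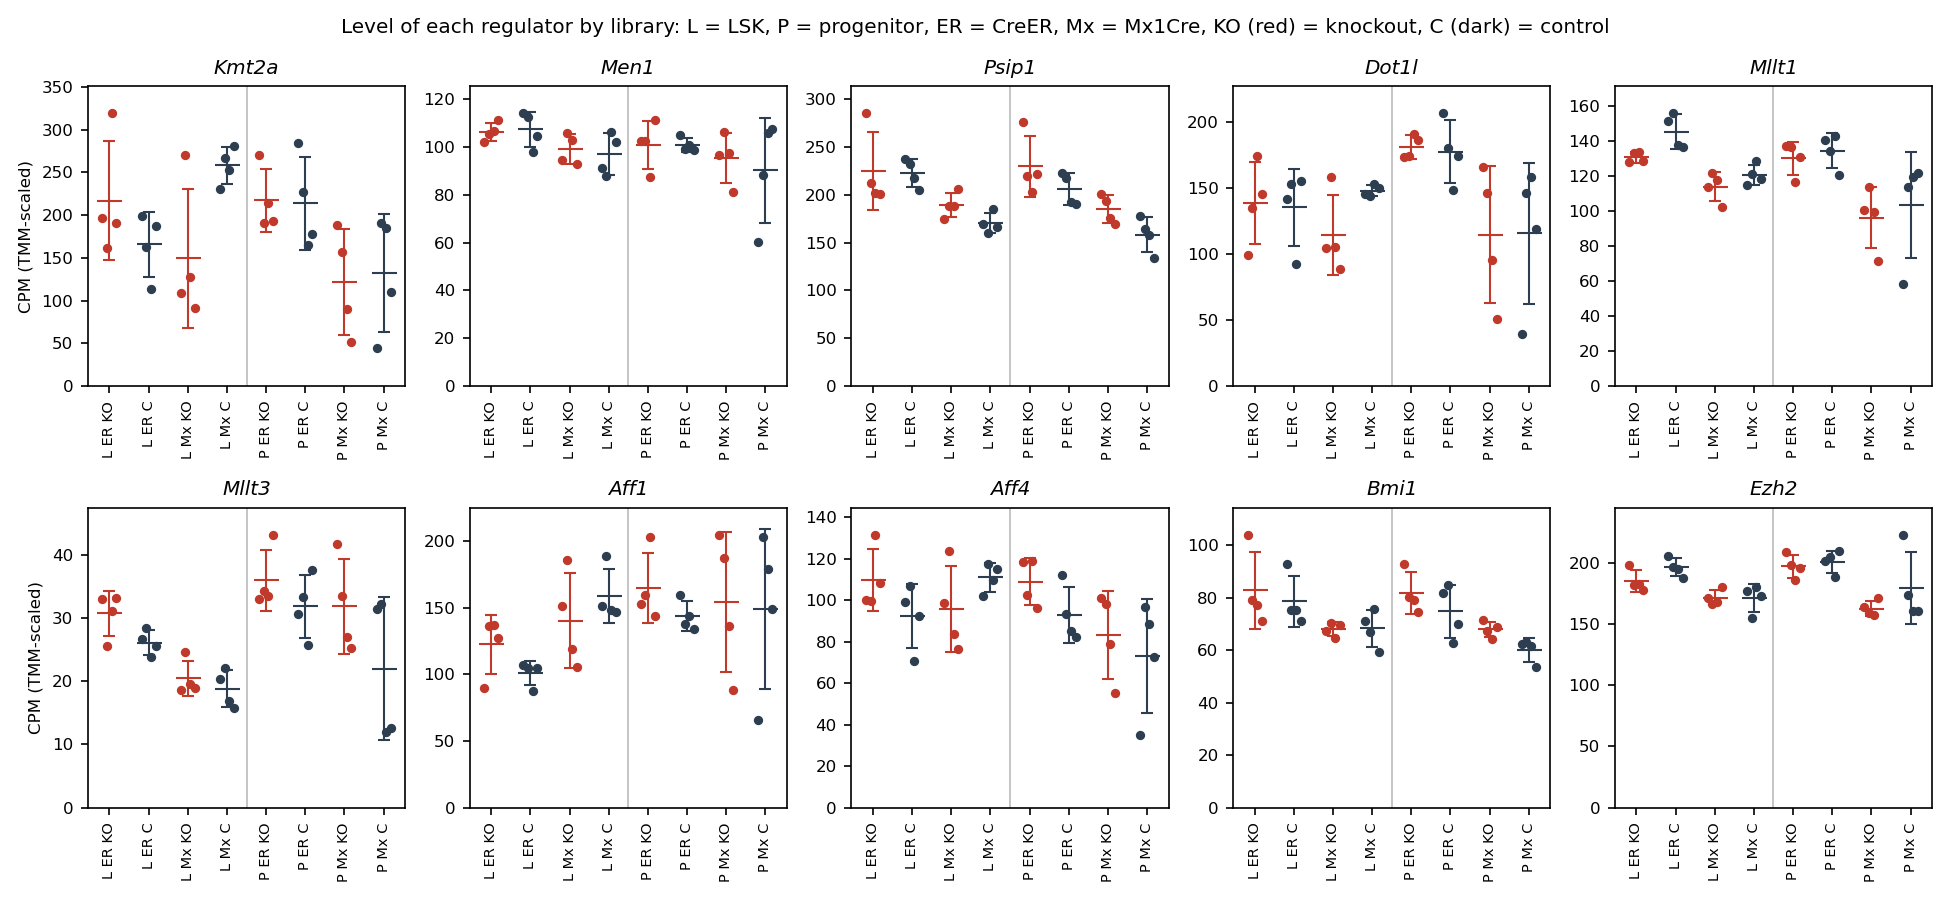
CPM (TMM-scaled, linear axis starting at 0) of each of the 10 genes in the 4 libraries of each of the 8 groups, with knockouts left of their controls; points are libraries and bars are the mean and SD. Ezh2 and Men1 stayed within a narrow band apart from single progenitor Mx1Cre libraries, while Kmt2a ran between 44.6 and 319 CPM over single libraries.

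In LSK cells, loss of Kat7 was accompanied by no called change in any of the 10 regulators when the Cre lines were averaged. Calls were made with the quasi-likelihood test of edgeR at a Benjamini-Hochberg adjusted p of at most 0.05. By this rule 0 of 10 were called, while 27.8% of the 14102 genes tested were, 13.5% higher and 14.3% lower. At an unadjusted p under 0.05 there was 1, Mllt1, and DESeq2 and limma-voom also called 0. The median log2 fold change of the 10 genes was 0.01, the same as over all genes tested. The 95% intervals of Men1 and Ezh2 spanned changes of -7.16% to 9.3% and of -9.56% to 4.57% relative to control. That of Kmt2a was wider, at -34% to 14.8%. In the separate Cre lines, 0 of 10 were called with CreER (3.16% of genes called), with 0 at an unadjusted p under 0.05 and 0 by DESeq2 and limma-voom. With Mx1Cre 1 of 10 was called (31% of genes called), by all 3 tools.

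Kmt2a was the gene called with Mx1Cre. It had 109, 269.9, 127 and 91.4 CPM in LSK Mx1Cre knockouts, against 231, 267, 253 and 281 CPM in LSK Mx1Cre controls. Knockouts 1, 3 and 4 were below every control and knockout 2 lay inside the control range, so the groups overlapped. The log2 fold change was -0.79 ± 0.27 (SE; 95% interval -1.36 to -0.22; edgeR, Benjamini-Hochberg adjusted p = 0.0336). With CreER, Kmt2a had 196, 162, 319 and 190.5 CPM in knockouts and 199, 163, 114 and 187 CPM in controls. These groups overlapped, and the log2 fold change of 0.39 ± 0.27 did not pass the edgeR test (adjusted p = 0.485). The difference between the Cre lines in the effect on Kmt2a was -1.18 ± 0.38 on the log2 scale (adjusted p = 0.0811), and 0 of 10 genes had a called difference (4.37% of genes called). At an unadjusted p under 0.05 there were 2, Kmt2a and Aff4, and DESeq2 and limma-voom called 0.

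The Kmt2a call was lost when any 1 of several libraries was left out, and the libraries with low Kmt2a also had a negative trend on gene length. Kmt2a has the greatest summed exon length of the 10 genes (16439 bases). The trend of log2 CPM on exon length, relative to the mean LSK library, was -0.102, -0.142 and -0.153 per doubling of length in Mx1Cre knockouts 1, 3 and 4, and 0.00364 in knockout 2, whose Kmt2a level was like that of controls. The trend was 0.00716 to 0.0402 in the Mx1Cre controls. With a linear length trend removed from each library, the log2 fold change of Kmt2a was -0.51 ± 0.20 (edgeR adjusted p = 0.0584), and with a spline trend, chosen after seeing the data, it was -0.37 ± 0.13 (adjusted p = 0.0433). Without knockout 2 it was -1.24 ± 0.21 (adjusted p = 0.000284). The call was lost without control 2, 3 or 4 (adjusted p = 0.0706, 0.0526 and 0.0736) and without knockout 1, 3 or 4 (adjusted p = 0.107, 0.0967 and 0.113). Cell type markers differed between the same groups. The summed 9 LSK and stem cell markers were at 929.3 to 1279 CPM in LSK Mx1Cre knockouts, against 1290 to 1581 CPM in their controls. Within this list 6 genes were lower without overlap, among them Kit, Flt3 and Hlf, while Procr was higher without overlap, and Ly6a and Cd34 overlapped. The summed erythroid markers were at 23.0 to 41.5 CPM in knockouts, against 76.6 to 331.9 CPM in controls, and 5 of their 8 genes were lower and 1 higher without overlap. All 4 megakaryocyte markers were lower without overlap, with sums of 69.9 to 83.4 CPM in knockouts, against 169.4 to 255.9 CPM in controls. The part of cell composition in the Kmt2a value was not tested.

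**Figure D2:**
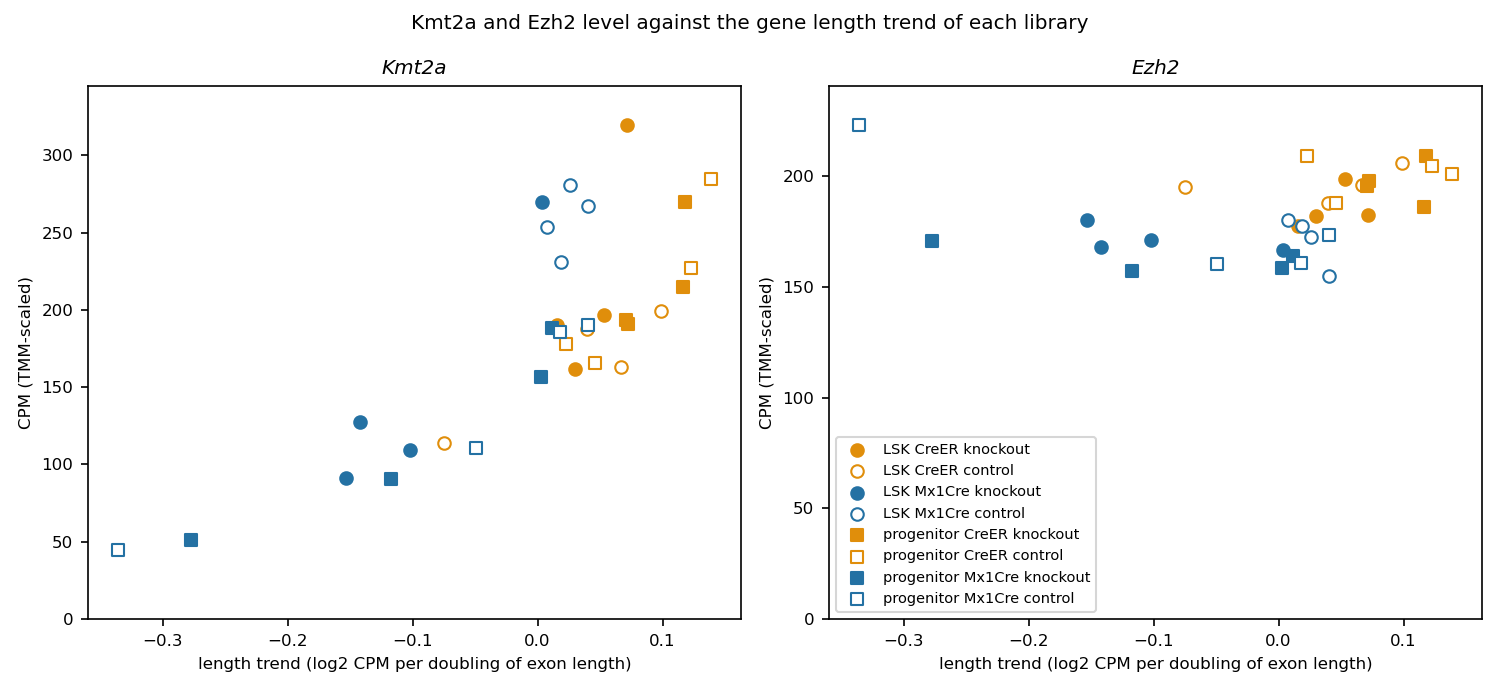
CPM of Kmt2a and Ezh2 (vertical axis, from 0) against the length trend of each of the 32 libraries (horizontal axis, log2 CPM per doubling of exon length relative to the mean library of the same population); filled symbols are knockouts and open symbols controls. Kmt2a was lowest in the libraries with the steepest negative trends, at 51.0 and 44.6 CPM in progenitor Mx1Cre knockout 4 and control 1 with trends of -0.28 and -0.34, while Ezh2, with 2667 bases of exon, was 170.9 and 222.9 CPM there.

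The partners of MLL1 showed no called change in LSK knockouts. Men1 had 94.5, 106, 103 and 92.9 CPM in LSK Mx1Cre knockouts and 91.2, 87.8, 106 and 102 CPM in their controls, and 102, 105, 107 and 111 CPM in CreER knockouts and 114, 113, 98.0 and 104 CPM in their controls. Both pairs of groups overlapped over most of their range, and the log2 fold changes were 0.03 ± 0.08 with Mx1Cre and -0.01 ± 0.08 with CreER. Psip1 had 175, 188, 189 and 206 CPM in LSK Mx1Cre knockouts, against 169.9, 161, 185 and 166 CPM in controls, a log2 difference of 0.15 ± 0.10 (edgeR adjusted p = 0.279). With CreER it had 285, 212, 202 and 201 CPM in knockouts and 237, 232, 217 and 205 CPM in controls. Knockout 1 was above every control, knockout 2 within their range and knockouts 3 and 4 just below it. The log2 fold change was 0.02 ± 0.10.

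Of DOT1L and the readers, Dot1l had 104, 158, 106 and 88.8 CPM in LSK Mx1Cre knockouts, against 145, 144, 153 and 149.8 CPM in controls. Knockouts 1, 3 and 4 were again below every control and knockout 2 above every control. The log2 fold change was -0.38 ± 0.18 (edgeR adjusted p = 0.118). Without knockout 2 it was -0.57 ± 0.17 (adjusted p = 0.0136). With CreER, Dot1l had 99.1, 135, 175 and 146 CPM in knockouts and 141, 153, 92.5 and 155 CPM in controls, which overlapped. Mllt1 had 128, 133, 134 and 128 CPM in CreER knockouts, against 152, 156, 138 and 136 CPM in controls. All 4 knockouts were below all 4 controls, but by little, and the log2 fold change of -0.15 ± 0.07 did not pass the edgeR test (adjusted p = 0.293). Mllt1 was the 1 gene of the 10 whose CreER groups did not overlap in LSK cells in either direction, and 5.22% of genes were lower without overlap and 4.32% higher. With Mx1Cre, where 14.5% of genes were higher and 15% lower without overlap, 0 of the 10 were separated.

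Mllt3 was higher on average in knockouts of both lines. It had 18.6, 24.6, 19.6 and 19.0 CPM in LSK Mx1Cre knockouts and 20.4, 22.1, 16.9 and 15.8 CPM in their controls, and 33.1, 25.6, 31.2 and 33.2 CPM in CreER knockouts and 26.7, 28.4, 23.8 and 25.6 CPM in their controls. Both pairs overlapped, and the log2 fold change over both lines of 0.18 ± 0.09 did not pass the edgeR test (adjusted p = 0.159). With the length trend removed it was 0.25 ± 0.08 (linear, adjusted p = 0.0266) or 0.26 ± 0.08 (spline, adjusted p = 0.0209), which passed.

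The elongation scaffolds took opposite signs in the Cre lines without a called change. Aff1 had 151, 186, 119 and 106 CPM in LSK Mx1Cre knockouts, against 151, 189, 148 and 147 CPM in controls (log2 -0.18 ± 0.16), and 89.9, 136, 137 and 127 CPM in CreER knockouts, against 107, 105, 87.7 and 105 CPM in controls (log2 0.28 ± 0.16). Aff4 had 98.7, 124, 83.7 and 76.4 CPM in Mx1Cre knockouts, against 102, 117, 109.7 and 115 CPM in controls (log2 -0.22 ± 0.14), and 99.9, 99.4, 131 and 108 CPM in CreER knockouts, against 99.0, 107, 70.8 and 92.5 CPM in controls (log2 0.25 ± 0.14). In both genes Mx1Cre knockout 2 had the highest value of its group and knockouts 3 and 4 the lowest. The difference between the lines was -0.46 ± 0.22 for Aff1 and -0.47 ± 0.20 for Aff4 (edgeR adjusted p = 0.209 and 0.159). Without Mx1Cre knockout 2 these differences were -0.61 ± 0.20 and -0.60 ± 0.18 (adjusted p = 0.0422 and 0.0299), and the effect on Aff4 with Mx1Cre was -0.36 ± 0.13 (adjusted p = 0.0396). Alternatives that did not leave out a single library shrank the differences between the lines to as little as -0.079 for Aff1 and -0.0045 for Aff4. Over all alternatives their adjusted p ran up to 0.825 and 0.988.

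The Polycomb genes had no called change either. Ezh2 had 171, 167, 168 and 180.2 CPM in LSK Mx1Cre knockouts and 177, 155, 180.2 and 173 CPM in controls, and 199, 182, 182 and 178 CPM in CreER knockouts and 206, 196, 195 and 188 CPM in controls. Its log2 fold changes were -0.00 ± 0.07 (95% interval -0.15 to 0.15) with Mx1Cre and -0.08 ± 0.07 (-0.23 to 0.07) with CreER. Bmi1 had 67.2, 70.5, 64.9 and 69.7 CPM in Mx1Cre knockouts and 71.1, 67.1, 75.8 and 59.3 CPM in controls, and 104, 79.0, 77.2 and 71.0 CPM in CreER knockouts and 93.0, 75.2, 75.2 and 71.3 CPM in controls. Knockout and control libraries of both genes overlapped in both lines. The log2 fold changes of Bmi1 were -0.01 ± 0.12 and 0.08 ± 0.12 with Mx1Cre and CreER.

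**Figure D3:**
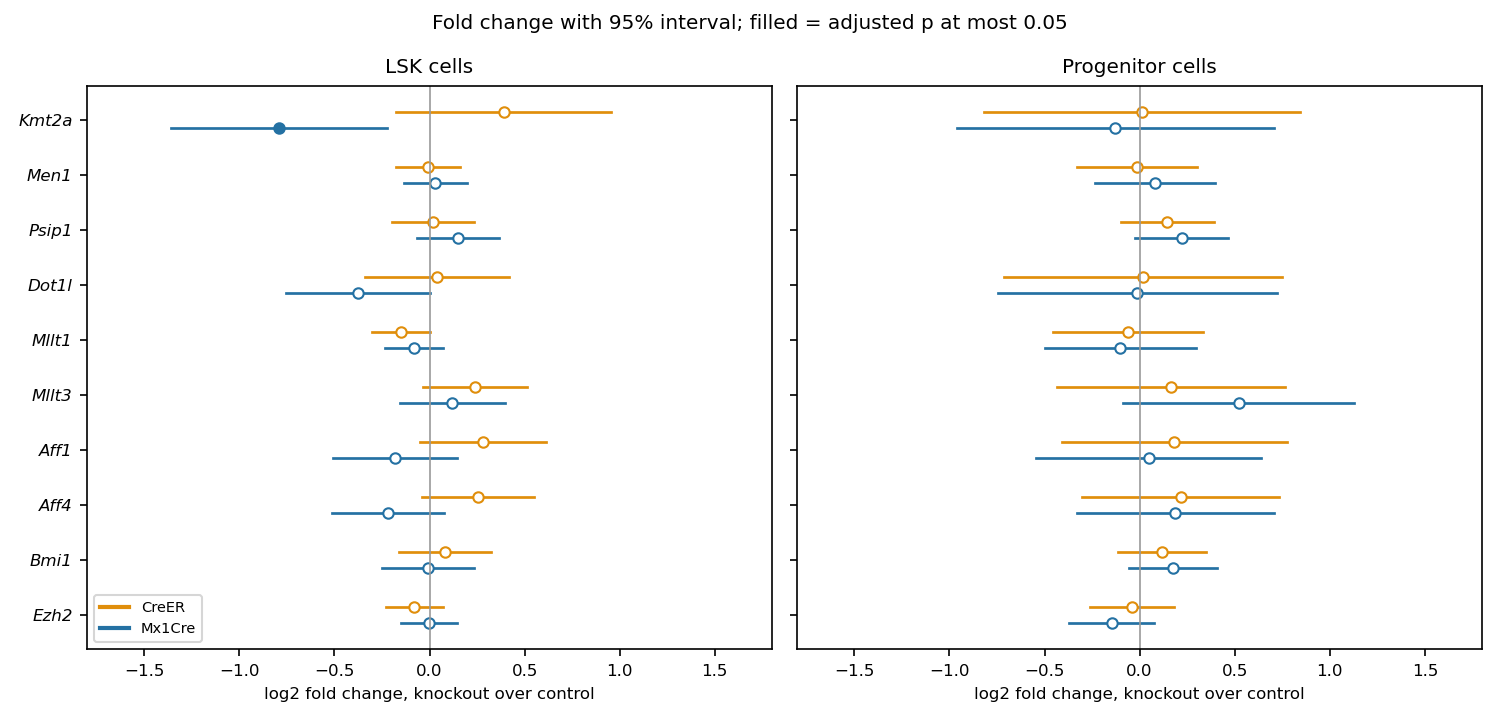
Log2 fold change (knockout over control) of the 10 genes with 95% intervals from the edgeR fit, by Cre line, in LSK cells and in progenitors; filled symbols have an adjusted p of at most 0.05. Kmt2a in LSK cells with Mx1Cre was the 1 estimate that passed, and intervals were narrowest for Men1, Mllt1 and Ezh2 in LSK cells.

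In progenitors, 0 of 10 genes were called over both Cre lines, where 7.79% of the 13692 genes tested were, 2.28% higher and 5.51% lower. Psip1 was the 1 gene at an unadjusted p under 0.05, and DESeq2 and limma-voom called 0. The median log2 fold change of the 10 was 0.07, against -0.01 over all genes tested. In the separate lines 0 of 10 were called with CreER (0.168% of genes called) and 0 of 10 with Mx1Cre (6.08%), with 0 in each at an unadjusted p under 0.05 and 0 by DESeq2 and limma-voom. No member differed in its effect between the lines (0 of 10, 0.299% of genes called) or between LSK cells and progenitors (0 of 10, 2.52% called), with 0 in both at an unadjusted p under 0.05 and 0 by DESeq2 and limma-voom. An effect that misses these tests is not shown to be equal.

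Psip1 had 201, 194, 176 and 169.6 CPM in progenitor Mx1Cre knockouts, against 178, 164, 158 and 134 CPM in controls, and 276, 219.5, 203 and 222 CPM in CreER knockouts, against 223, 218, 192 and 191 CPM in controls. Most knockouts were above the median of their controls, with overlap in both lines. The log2 fold change over both lines was 0.18 ± 0.08 (edgeR adjusted p = 0.219). Bmi1 had 71.4, 67.4, 64.4 and 68.8 CPM in Mx1Cre knockouts, against 62.3, 63.0, 61.7 and 53.5 CPM in controls. All 4 knockouts were above all 4 controls, and the log2 difference of 0.17 ± 0.11 did not pass (adjusted p = 0.475). Bmi1 was the 1 gene of the 10 that separated higher in knockouts with Mx1Cre, where 3.4% of genes did so and 6.05% separated lower. With CreER, where 4.81% separated higher and 4.78% lower, 0 of the 10 did.

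Several genes had a wide spread between progenitor Mx1Cre libraries. Kmt2a had 188, 157, 90.4 and 51.0 CPM in Mx1Cre knockouts and 44.6, 190.3, 185 and 111 CPM in controls, and Dot1l had 166, 146, 95.4 and 51.2 CPM in knockouts and 39.4, 146, 158 and 119 CPM in controls. Knockout 4 and control 1, with length trends of -0.28 and -0.34, were the lowest of their groups for both genes, and for Aff1, Aff4, Men1 and Mllt1 as well. Exon length did not sort the genes in full, since Men1, at 81.2 and 60.1 CPM there, and Mllt1 have 3040 and 3609 bases of exon, while Ezh2, with 2667, was at 170.9 and 222.9 CPM. Mllt3, with 6216 bases, was among the higher controls in control 1. The 95% intervals were -48.6% to 63.3% for Kmt2a and -40.3% to 65% for Dot1l, so a change of any size between these limits was not excluded. With CreER, Kmt2a had 270.0, 191, 215 and 194 CPM in knockouts and 284, 227, 166 and 178 CPM in controls, and the log2 fold change was 0.01 ± 0.39.

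Mllt3 had 41.7, 33.4, 27.0 and 25.2 CPM in progenitor Mx1Cre knockouts and 31.4, 32.2, 11.9 and 12.6 CPM in controls. The 4 controls formed a high and a low pair, and knockouts 3 and 4 lay between them. Controls 1 and 2 were labelled female and controls 3 and 4 male. Cell type markers split the same pairs. Summed erythroid markers were 1191 and 476.6 CPM in controls 1 and 2, against 158.6 and 183.6 CPM in controls 3 and 4. Summed mature neutrophil markers were 1778 and 1106 CPM, against 4264 and 13920 CPM. The part of sex or cell composition in the split was not tested. The log2 fold change of Mllt3 was 0.52 ± 0.29 (edgeR adjusted p = 0.388), and with sex as a covariate it was 0.58 ± 0.25 (adjusted p = 0.228). The remaining genes gave log2 fold changes over both lines of 0.03 ± 0.10 for Men1, -0.08 ± 0.13 for Mllt1, 0.12 ± 0.20 for Aff1, 0.20 ± 0.17 for Aff4 and -0.09 ± 0.07 for Ezh2. Ezh2 was the most tightly estimated of these, with an interval of -15.9% to 4.61%. With the spline length trend removed, Aff4 was 0.21 ± 0.06 (adjusted p = 0.0444) and became the 1 gene called.

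More of the regulators were called between the control groups of the Cre lines than between knockout and control. In progenitors the same held for all genes, with 25.3% called between the controls and 7.79% between knockout and control over both lines. In LSK cells it did not hold for all genes, with 21.7% called between the controls and 27.8% between knockout and control. In LSK controls, 4 of 10 were called between Mx1Cre and CreER, 1 higher and 3 lower, where 21.7% of genes were called, 11.7% higher and 10% lower. DESeq2 called 5 and limma-voom 4. Aff1 was higher, with 151, 189, 148 and 147 CPM in Mx1Cre controls, against 107, 105, 87.7 and 105 CPM in CreER controls. The groups did not overlap, and the log2 difference was 0.67 ± 0.16 (edgeR adjusted p = 0.00559). It passed under every alternative run, with a highest adjusted p of 0.0267.

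Psip1, Mllt1 and Mllt3 were lower in Mx1Cre controls, each without overlap. Psip1 had 169.9, 161, 185 and 166 CPM in Mx1Cre controls and 237, 232, 217 and 205 CPM in CreER controls (-0.37 ± 0.10, adjusted p = 0.0164). Mllt1 had 115, 121, 129 and 118 CPM in Mx1Cre controls and 152, 156, 138 and 136 CPM in CreER controls (-0.25 ± 0.07, adjusted p = 0.0189). Mllt3 had 20.4, 22.1, 16.9 and 15.8 CPM in Mx1Cre controls and 26.7, 28.4, 23.8 and 25.6 CPM in CreER controls (-0.45 ± 0.13, adjusted p = 0.0196). These 3 calls were less stable. Psip1 lost its call without CreER control 2 or Mx1Cre control 2 (adjusted p = 0.0503 and 0.0511), Mllt1 without CreER control 1 or 2 or Mx1Cre control 1 or 4 (0.0645, 0.0705, 0.0516 and 0.0593), and Mllt3 without CreER control 1 or 2 or Mx1Cre control 3 or 4 (0.0503, 0.0581, 0.0681 and 0.0764). Kmt2a and Ezh2 also separated without passing the test, Kmt2a higher (0.66 ± 0.27, adjusted p = 0.0896) and Ezh2 lower (-0.18 ± 0.07, adjusted p = 0.0809). In all, 2 of the 10 were higher without overlap and 4 lower, against 13.7% and 15% of genes. With a linear length trend removed Kmt2a passed (0.70 ± 0.20, adjusted p = 0.0149), and so did Aff4 (0.31 ± 0.09, adjusted p = 0.0193). Kmt2a gained a call under 3 of 17 alternatives, and its difference fell as low as 0.39 (adjusted p up to 0.217). Aff4 gained a call under 1 of 17, and its difference fell as low as 0.13 (adjusted p up to 0.392).

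In progenitor controls, 2 of 10 were called, both lower in Mx1Cre, where 25.3% of genes were called, 14.3% higher and 10.9% lower. Psip1 had 178, 164, 158 and 134 CPM in Mx1Cre controls, against 223, 218, 192 and 191 CPM in CreER controls, without overlap (-0.37 ± 0.12, edgeR adjusted p = 0.0275). It was the 1 gene of the 10 that separated in either direction, where 13% of genes separated higher and 13.3% lower. Bmi1 had 62.3, 63.0, 61.7 and 53.5 CPM in Mx1Cre controls, against 81.6, 84.8, 62.9 and 69.9 CPM in CreER controls, with overlap at a single library of each (-0.31 ± 0.11, adjusted p = 0.0499). With a linear length trend removed both calls were lost (adjusted p = 0.0598 for Psip1 and 0.183 for Bmi1). Psip1 also lost its call without CreER control 1 or 2 or Mx1Cre control 4 (0.0854, 0.0759 and 0.0781), and Bmi1 without CreER control 1, 2 or 4 or Mx1Cre control 2, 3 or 4 (0.0579 to 0.163). Without Mx1Cre control 1, Ezh2 was called as well (-0.29 ± 0.08, adjusted p = 0.0117). Psip1 was thus lower by nearly the same log2 difference in Mx1Cre controls of both populations, though each mouse gave both libraries.

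Levels of cell type markers differed between the control groups. The summed level of the 8 myeloid progenitor markers was 17490 to 21770 CPM in LSK Mx1Cre controls, against 4990 to 11320 CPM in LSK CreER controls, and 35640 to 38970 CPM in progenitor Mx1Cre controls, against 13780 to 25750 CPM in progenitor CreER controls. The summed 6 mature neutrophil markers were 367.7 to 2202 CPM in LSK Mx1Cre controls, against 88.5 to 164.9 CPM in LSK CreER controls, and 1106 to 13920 CPM in progenitor Mx1Cre controls, against 265.6 to 614.1 CPM in progenitor CreER controls. None of these markers was at 0 in all libraries. The summed 4 megakaryocyte markers went the other way, at 169.4 to 255.9 CPM in LSK Mx1Cre controls and 333.3 to 407.8 CPM in LSK CreER controls. Itga2b made up most of this sum, at 131.1 to 192.1 CPM against 276.2 to 329.8 CPM. Pf4, Gp1bb and Vwf overlapped between these groups, and Vwf had the higher mean in Mx1Cre controls (27.5 against 25.3 CPM). The part of cell composition, inducer and mice in the control differences was not tested.

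**Figure D4:**
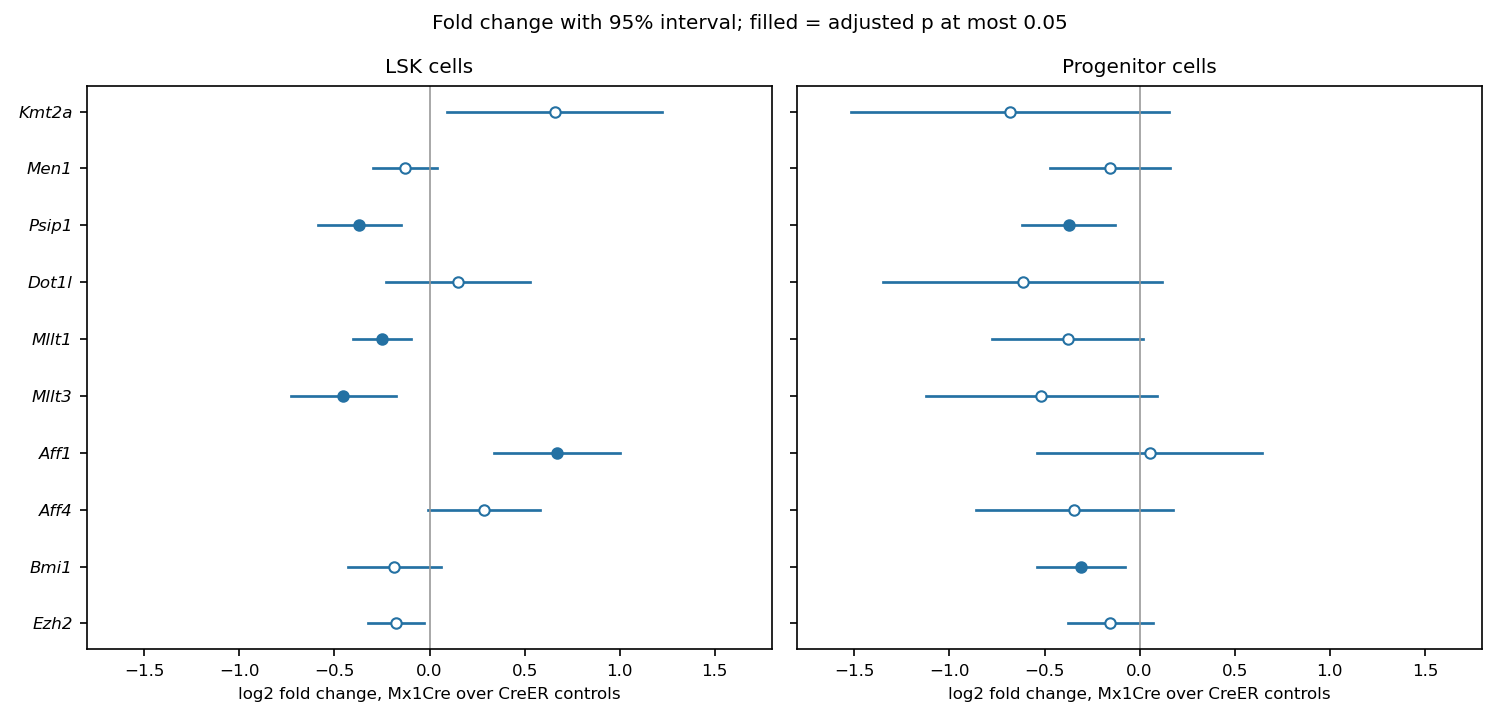
Log2 fold change (Mx1Cre over CreER controls) of the 10 genes with 95% intervals in LSK cells and in progenitors; filled symbols have an adjusted p of at most 0.05. Psip1 was lower in both populations, Mllt1 and Mllt3 were lower and Aff1 higher in LSK cells, and Bmi1 was lower in progenitors.

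Between LSK and progenitor cells of control mice, 0 of 10 genes were called, where 34.6% of the 14459 genes tested were (17.4% higher and 17.3% lower in LSK cells), and 0 were at an unadjusted p under 0.05. DESeq2 and limma-voom also called 0. Men1 stood at 107 ± 7.48 CPM in LSK and 101 ± 2.94 CPM in progenitor CreER controls (SD, n = 4 each), and Ezh2 at 196 ± 7.36 CPM in LSK and 201 ± 9.09 CPM in progenitor CreER controls. Their log2 differences, LSK over progenitor, were 0.10 ± 0.09 (95% interval -0.08 to 0.27) and -0.05 ± 0.06 (-0.17 to 0.07). Aff4 came closest, at 0.30 ± 0.15 (edgeR adjusted p = 0.126). With the mouse as a block, since each mouse gave both libraries, Aff4 was 0.34 ± 0.11 (adjusted p = 0.0228) and was the 1 gene called. With the linear length trend removed as well it was 0.21 ± 0.06 (adjusted p = 0.0143), and Aff1 was -0.27 ± 0.08 (adjusted p = 0.00906). Without progenitor Mx1Cre control 1 and knockout 4, Aff1 was -0.34 ± 0.12 (adjusted p = 0.0267).

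The other subunits of the same complexes are set beside all genes tested in LSK knockouts, of which 13.5% rose and 14.3% fell over both Cre lines. Of 18 other H3K4 methyltransferase complex genes, 3 rose and 0 fell, a share of rises near that of all genes, and the list's median log2 fold change was 0.04. They were Dpy30 and Ash2l, core subunits shared by all MLL and SET1 complexes (0.39 ± 0.07, edgeR adjusted p = 0.000456, and 0.20 ± 0.06, adjusted p = 0.0197), and Wdr82, a subunit of SET1 complexes (0.16 ± 0.06, adjusted p = 0.0402). Ash2l lost its call without LSK CreER control 4 (adjusted p = 0.0534), and Wdr82 lost its call when any 1 of 13 libraries was left out (adjusted p up to 0.11). Of 14 DOT1L and super elongation complex genes, 11 were tested, 1 rose and 2 fell, with a median of -0.08. The elongation factor gene Ell2 (-1.14 ± 0.17) and Mllt6, a DOT1L cofactor gene also called AF17 (-0.64 ± 0.12), fell, and Eaf1, an ELL-associated factor gene, rose (0.21 ± 0.06; edgeR adjusted p = 0.000115, 0.00096 and 0.0119). Eaf1 lost its call without LSK CreER knockouts 2 and 3 together (adjusted p = 0.0881). Aff2, Ell3 and Eaf2 did not pass the filter on low counts.

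Ell2 differed sharply between the lines. It averaged 2.79 ± 1.01 CPM in LSK Mx1Cre knockouts, against 13.1 ± 3.31 CPM in controls (SD, n = 4 each), and 16.1 ± 3.15 CPM in CreER knockouts, against 16.5 ± 3.52 CPM in controls. The difference between the lines was -2.20 ± 0.34 on the log2 scale (edgeR adjusted p = 0.00106). Its effect also differed between LSK cells and progenitors, by -1.32 ± 0.27 (adjusted p = 0.00669). In progenitor Mx1Cre knockouts Ell2 averaged 19.9 ± 6.72 CPM, against 17.4 ± 6.92 CPM in controls. Summed erythroid and megakaryocyte markers were also lower in LSK Mx1Cre knockouts, as given above. The part of cell composition in the Ell2 values was not tested.

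Among 20 other PRC1 genes 2 rose and 4 fell, with a median of -0.07, and the 6 called are close to the 27.8% of all genes called. The Polycomb chromodomain genes Cbx6 and Cbx2 and the RING partner gene Pcgf2 (Mel18), a close relative of Bmi1, fell, with log2 fold changes of -0.44 ± 0.10, -0.43 ± 0.13 and -0.60 ± 0.19 (edgeR adjusted p = 0.00453, 0.018 and 0.0248). Pcgf2 lost its call without LSK Mx1Cre control 4 (adjusted p = 0.0648), and Cbx2 without LSK CreER knockouts 2 and 3 together (adjusted p = 0.0651). Among 11 other PRC2 genes 3 rose and 2 fell, with a median of 0.08. Ezh1, the other PRC2 methyltransferase, averaged 30.1 ± 3.83 CPM in Mx1Cre knockouts, against 43.1 ± 3.09 CPM in controls, and 28.8 ± 3.65 CPM in CreER knockouts, against 33.5 ± 4.48 CPM in controls. It fell over both lines (-0.37 ± 0.08, adjusted p = 0.00383) and passed under every alternative run, up to an adjusted p of 0.0107, where Ezh2 was -0.04 ± 0.05. Whether the effects on Ezh1 and Ezh2 differ was not tested. Per length of exon, Ezh1 was the scarcer of the 2 in LSK CreER controls, at 7.99 ± 1.07 RPKM beside 73.6 ± 2.76 RPKM. Rbbp7, a histone-binding subunit, and the accessory subunits Phf19 and Jarid2 rose by 0.26 ± 0.08, 0.22 ± 0.07 and 0.21 ± 0.07 (adjusted p = 0.0217, 0.0294 and 0.0434). Rbbp7 lost its call without LSK Mx1Cre control 2 (adjusted p = 0.0532), and Phf19 and Jarid2 lost theirs under 10 and 16 of 26 alternatives (adjusted p up to 0.0799 and 0.147).

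Other called Polycomb genes, named after their values were seen, were Rybp, which rose (0.28 ± 0.10, adjusted p = 0.0389), and Cbx7 and Phf1, which fell (-0.41 ± 0.15 and -0.35 ± 0.12, adjusted p = 0.0458 and 0.0441). These 3 lost their calls under 12, 13 and 13 of 26 alternatives.

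Most of the tested genes that MLL1 and Polycomb act on fell in LSK knockouts. Of 15 such genes 13 were tested in LSK cells, 9 fell, 1 rose and 3 were not called, where 14.3% of all genes fell and 13.5% rose. With CreER alone 3 were called, all lower, and with Mx1Cre alone 10, of which 9 were lower. Their median log2 fold change was -0.92 over both lines, against 0.01 over all genes. The list was put together with results of these data known, so its direction is no independent evidence. Of the 9 LSK and stem cell markers, 6 were lower and 1 was higher without overlap in LSK Mx1Cre knockouts, as given above. Mecom is in both lists. The part of cell composition in the target values was not tested in either population. Hoxa9 was -1.24 ± 0.09, Hoxa7 -1.04 ± 0.09 and Eya1, a transcriptional cofactor, -1.48 ± 0.19 (edgeR adjusted p = 7.40e-08, 2.41e-07 and 1.59e-05). Pbx3, a cofactor of Hox proteins named here after its values were seen, was the 1 that rose (0.43 ± 0.11, adjusted p = 0.00843). Cdkn2a and Cdkn2b, which Polycomb represses and whose products stop the cell cycle, did not pass the filter and were at most at 0.157 CPM in any LSK library.

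In progenitors, 7 of the 13 tested target genes fell, 1 rose and 5 were not called over both lines, where 5.51% of all genes fell and 2.28% rose. Their median was -1.30, against -0.01 over all genes. With CreER alone 1 was called, lower, and with Mx1Cre alone 7, of which 6 were lower. Hoxa9 was -1.78 ± 0.16, Hoxa7 -1.83 ± 0.21, Eya1 -2.16 ± 0.38 and Hoxa3 -1.67 ± 0.31 (edgeR adjusted p = 5.73e-06, 4.45e-05, 0.00204 and 0.00273), and Pbx3 again rose (0.66 ± 0.15, adjusted p = 0.0122). Of the other complexes, 1 of 18 H3K4 genes rose (Hcfc2, a host cell factor subunit of MLL complexes, 0.39 ± 0.11, adjusted p = 0.0388). Of the 20 PRC1 genes, Rybp, a subunit of variant PRC1, rose (0.49 ± 0.13, adjusted p = 0.0267) and Cbx6 fell (-0.36 ± 0.09, adjusted p = 0.0267). Hcfc2, Rybp and Cbx6 lost their calls under 15, 10 and 9 of 26 alternatives (adjusted p up to 0.0822, 0.0634 and 0.0668). Of 12 tested DOT1L and elongation genes edgeR called 0, with 1 at an unadjusted p under 0.05, and DESeq2 called 1 and limma-voom 0. Of 11 PRC2 genes edgeR called 0, with 2 at an unadjusted p under 0.05, and DESeq2 and limma-voom called 0.

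In control mice 11 of the 13 tested targets were higher in LSK cells than in progenitors and 0 were lower, with a median log2 difference of 1.43, where 17.4% of all genes were higher and 17.3% lower. The way the list was put together limits this count as it does the others. Hoxa9, a stem cell Hox gene, averaged 46.7 ± 6.51 CPM in LSK CreER controls and 19.8 ± 3.26 CPM in progenitor CreER controls. Kmt2a averaged 166 ± 37.7 CPM and Men1 107 ± 7.48 CPM in the same LSK controls, and 214 ± 54.2 and 101 ± 2.94 CPM in the progenitor controls. In Mx1Cre controls the order of Kmt2a was reversed, at 258 ± 21.3 CPM in LSK cells and 133 ± 69.2 CPM in progenitors. Men1 was at 96.9 ± 8.76 and 90.3 ± 22.0 CPM there. Over both lines the log2 difference of Kmt2a, LSK over progenitor, was 0.30 ± 0.26 (edgeR adjusted p = 0.387).

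**Figure D5:**
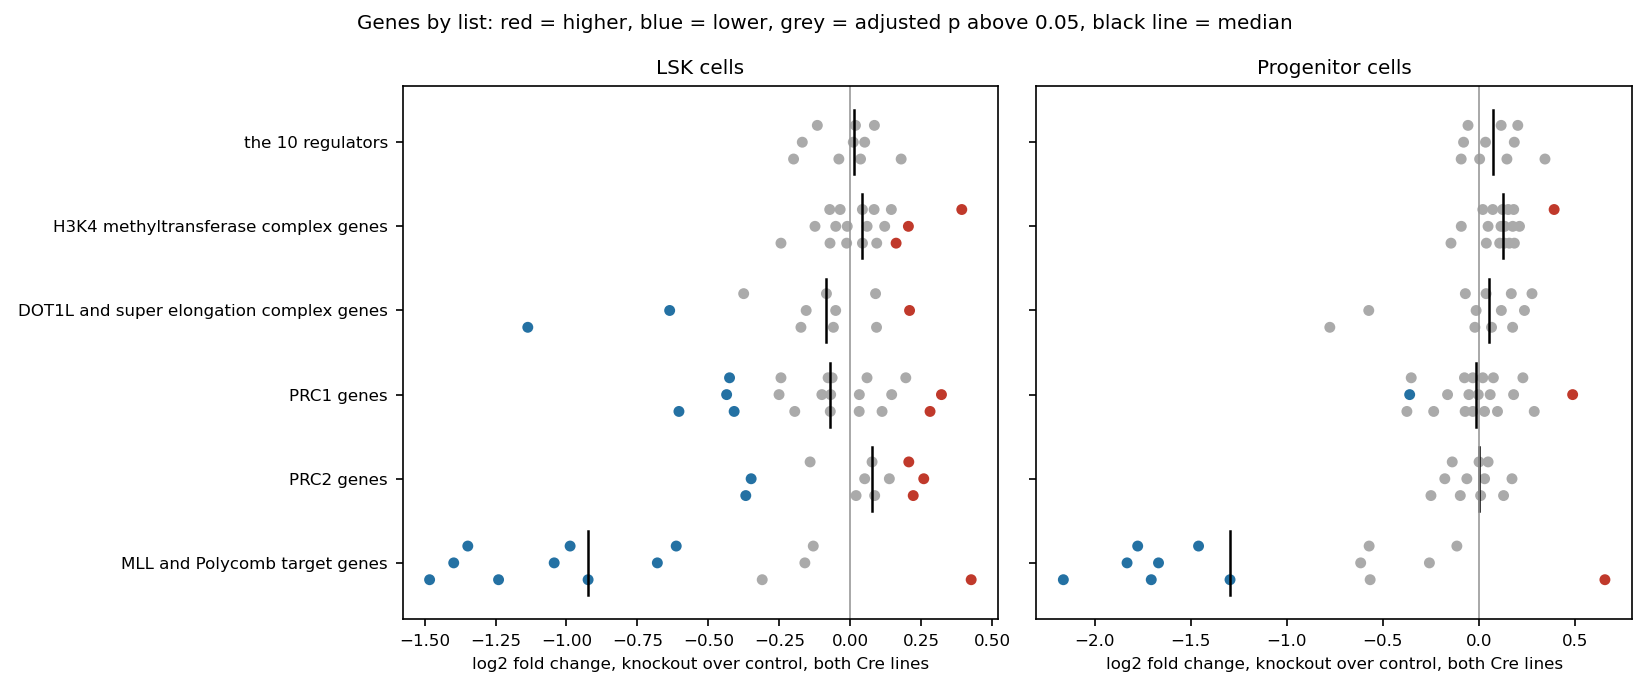
Log2 fold change (knockout over control, both Cre lines) of each gene of the 10 regulators, the 4 complex lists and the target list, in LSK cells and in progenitors; red points were called higher, blue points lower and grey points not at all, and bars are list medians. The regulators and complexes centre near 0, and the target genes have medians of -0.92 in LSK cells and -1.30 in progenitors.

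Likeness to other genes was measured for the 2 regulators with the widest ranges, as the root mean square difference of log2 CPM over the 8 group means after centring, among 14459 genes. The genes closest to Kmt2a were Dvl3 (0.101), Atf7 (0.107) and Ash1l (0.111), and those closest to Mllt3 were Hcfc2 (0.0948), Sfmbt1 (0.0966) and Tigd5 (0.108). These values are descriptions over 8 group means, and LSK and progenitor groups share their mice.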

How the data were processed

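Per the labels' protocols, libraries were made from 50 ng of RNA with an Illumina TruSeq kit and sequenced as paired-end 80 bp reads. Gene counts came from featureCounts on mm10, per the submitters' processing notes. Aligner, annotation and strand setting were not given in the sources used here, so overlapping, antisense or closely related genes may share reads. The authors deposited unnormalized whole-number counts for each gene, and symbols were found for 25275 of 27179 genes. The other genes held 3.92% of counts.

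From these counts, edgeR 4.0.16 in R 4.3.3 gave TMM-scaled CPM, RPKM from the deposited exon length, and quasi-likelihood tests with Benjamini-Hochberg adjustment at 0.05 over all genes that passed its filter (10 counts in enough libraries, 15 in total). LSK and progenitor libraries were fitted apart (16 each), and all 32 together for comparisons across populations, in 12 comparisons in all. Fold changes are log2 with standard errors (SE). Counting error weighs more on genes with few counts, such as Kat7 in knockouts and Ell2 in LSK Mx1Cre knockouts, than on the 10 regulators. Reads that carry no molecular identifier do not count single molecules. Alternatives were DESeq2 1.42.0, limma-voom (limma 3.58.1), other scaling and filters, sex, blocks, removal of each library's trend on gene length, and leaving out libraries. The test was checked on simulated counts. Same-numbered knockout and control libraries deviated together with correlations of -0.279 to 0.434 (8 of 16 above 0.1). In LSK Mx1Cre all 4 such correlations were above 0.1 (0.13 to 0.244). Progenitor libraries of the same mice gave -0.279, 0.434, 0.069 and -0.004. Mx1Cre numbers 1 and 2 were labelled female and 3 and 4 male in knockouts and controls alike. The labels do not give same-numbered mice as pairs, and the main fits did not use the numbers as a block. LSK and progenitor libraries of the same mouse are pairs by their labels (-0.094 to 0.427, 14 of 16 above 0.1). CreER knockouts 2 and 3 gave -0.094 and -0.063, and these are the LSK libraries whose sex-linked genes went against their labels. Whether these LSK libraries were exchanged was not tested.

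The 10 genes, the gene lists and the alternatives were chosen with earlier results of these data known. Apart from the 10 genes and Kat7, the rule named up to 4 called genes of each list with the lowest adjusted p per population, and the 3 genes most like each of the 2 widest-ranging regulators. Some results under this rule are not reported here. Mice are the replicates, with 4 per group.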

Additional observations from a re-analysis of the deposited data

Results flagged for a closer look

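In 7 of 80 groups of 4 libraries, 1 library of a regulator stood apart from the other 3 by a gap that, relative to the group's range, was above Dixon's 95% critical value. Chance gives about 1 in 20 such groups. In LSK CreER knockout 1, Psip1 was at 285 CPM, with the other 3 knockouts between 200.8 and 212.5. In LSK Mx1Cre knockout 2, the library with the flattest length trend of its group, Mllt3 was at 24.6 CPM, with the others between 18.6 and 19.6. In LSK Mx1Cre control 2, Aff1 was at 189 CPM, with the others between 147.0 and 151.1, and in LSK CreER control 3, the LSK control with the most negative length trend (-0.0751), Aff1 was at 87.7 CPM, with the others between 104.9 and 106.9. In progenitor Mx1Cre control 1, which had a trend of -0.336, Mllt1 was at 58.3 CPM, with the others between 114.1 and 122.0. In progenitor CreER knockout 4, Mllt3 was at 43.2 CPM, with the others between 33.1 and 34.3. In progenitor Mx1Cre control 4, Bmi1 was at 53.5 CPM, with the others between 61.7 and 63.0. The part of RNA quality or library preparation in these values was not tested.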

How the results depend on the processing

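Of 158 fold changes tried under the alternatives, 121 kept their side of the threshold throughout. Of 3848 single values, 3651 did so, 171 lost a call, 25 gained one, and 1 called value changed sign. Another 161 values changed sign without a call. The called one was Kmt2a in LSK Mx1Cre knockouts, at 0.064 without knockouts 1, 3 and 4, which by construction leaves the 1 knockout already at the control level and tests nothing. The number of the 10 regulators called in LSK cells over both Cre lines was 1 in place of 0 with a linear or spline length trend removed (Mllt3), and 0 to 1 when single libraries were left out. With Mx1Cre it was 0 with the linear trend and 2 with the spline trend (Kmt2a and Mllt3), and 0 to 3 with single libraries left out. For the difference between the lines in LSK cells that range was also 0 to 3, and the 3 were reached without Mx1Cre knockout 2, as Kmt2a with Dot1l and Aff4, and Kmt2a with Aff1 and Aff4. In the LSK control comparison the range was 1 to 4, lowest without CreER control 2, and 4 to 6 under the other alternatives, highest with the linear trend. In progenitors over both lines it was 1 with the spline trend (Aff4). In the progenitor control comparison it was 1 with no filter, limma-voom or sex as a covariate, 0 with the linear or spline trend or with just the compared groups in the fit, and 0 to 3 with single libraries left out. Between LSK and progenitor controls it was 2 with the linear or spline trend, 1 with the mouse as a block, 2 with block and linear trend, and 1 without progenitor Mx1Cre control 1 and knockout 4.

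Counts of all genes called moved further. In LSK cells with CreER they were 33 to 885, against 445, and for the difference between the lines 310 to 2556, against 616. In progenitors they were 775 to 2013 over both lines, against 1067, 7 to 183 with CreER, against 23, 344 to 1541 with Mx1Cre, against 833, 19 to 120 for the difference, against 41, and 2297 to 4443 in the control comparison, against 3458. For the difference between populations they were 148 to 1041, against 364. Of the lists, called PRC2 genes in LSK cells ran between 2 and 6, against 5, and called targets stayed at 10 in LSK cells and at 6 to 10 in progenitors.

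With the replicate number as a block, although the labels do not give it as a pair, Kmt2a in LSK Mx1Cre knockouts was -0.92 ± 0.26 (edgeR adjusted p = 0.0226). This replicate block changed no call among the 10 regulators, and the mouse as a block changed that of Aff4 alone. Wdr82 in LSK cells and Hcfc2 and Rybp in progenitors lost their calls with the replicate number as a block (adjusted p = 0.0512, 0.0741 and 0.0634). With 4 mice per group, differences of any size within the intervals given were not excluded.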
